A study of Homo sapiens with 4 samples.

Results

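Olfactory receptor genes lie in clusters on many human chromosomes. Described here are the promoter regions of 7 such clusters outside chromosome 11, on chromosomes 1, 6, 9, 12, 14 and 17, measured by chromatin immunoprecipitation on promoter-tiling arrays (ChIP-chip). Members were taken by position alone, as every tiled design region with at least 5 probes starting inside one of 7 windows. The windows were chr1:245650000-246930000 (1q44), chr1:156600000-157050000 (1q23), chr6:29110000-29670000 (6p22), chr9:124270000-124610000 (9q33), chr12:53790000-54320000 (12q13), chr14:19240000-19800000 (14q11) and chr17:2900000-3300000 (17p13). They were drawn on the coordinate scale of the NCBI36 assembly, while the build of the files is not given in the sources used here, so positions are printed as the files give them. The windows held 123 of the 18008 design regions with enough probes and 2507 of 386230 probes: 42 regions in 1q44, 13 in 1q23, 14 each in 6p22, 9q33 and 12q13, 15 in 14q11 and 11 in 17p13. No region in the windows fell below the probe minimum. Each member region was 2700 bp long and carried 7 to 26 probes, with a median of 21.

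The study used HEK293, a human embryonic kidney line, stably transfected with RPF-1, a transcription factor carrying an HA tag. Withholding tetracycline induces it. Induced cells (Tet-) and uninduced control cells (Tet+) were each cultured for 48 h, fixed with formaldehyde and precipitated with the same anti-HA antibody. Both groups carry the same construct, and whether the line is a single clone is not stated. Each of the 4 arrays compared one induced precipitate, labelled with Cy5, with one uninduced precipitate, labelled with Cy3, with no dye swap and no input DNA on the array. Arrays 2, 3 and 4 name induced preparations 4, 10 and 13 and uninduced preparations 3, 7 and 9, and array 1 names none. Whether each preparation was its own culture is not stated. The p-values therefore cover the spread between these 4 arrays, which may be technical. All values below are log2 ratios of induced over uninduced, after the median of each array was set to 0. A negative value means relatively less signal in the induced precipitate than at the median probe, not an absence of the factor.

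Olfactory receptors are G protein-coupled receptors whose coding sequence usually lies in a single exon. Each olfactory neuron expresses one of the genes from one allele, and in other tissues the clusters are kept silent in compact chromatin. Their promoters are rich in A and T, mostly lack CpG islands and often hold homeodomain binding sites. RPF-1 is a name used for retina-derived POU-domain factor 1, and POU factors carry a POU-specific domain and a homeodomain that bind A/T-rich DNA such as the octamer. The labels give the name RPF-1 only.

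The label of the clusters was checked against the RefSeq gene order, which is on GRCh38 and was used for names and neighbours only. RefSeq lists a run of 43 neighbouring olfactory receptor genes from OR2B11 to OR14I1 at 1q44, against 42 design regions in that window. The runs at 1q23 (OR10T2 to OR6N2), 6p22 (OR2W1 to OR2H2) and 9q33 (OR1J2 to OR1K1) hold 13, 14 and 14 genes, against 13, 14 and 14 regions. Those at 12q13 (OR9K2 to OR10P1), 14q11 (OR11H12 to OR11H4) and 17p13 (OR1D5 to OR1E2) hold 15, 17 and 11 genes, against 14, 15 and 11 regions. Other coding genes lie within some of these runs, such as TRIM58 at 1q44 and UBD at 6p22, so not every region need be an olfactory receptor promoter. No region was assigned to a gene, because no annotation of the files' build was used here.

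Promoter sequences of these genes are shown for their own base composition, as the sequence under the array probes was not read. RefSeq promoters, from 250 bases before to 50 bases after the gene start on GRCh38.p14, matched 103 of the 127 genes in the 7 runs. Their median GC content was 37.3%, against 58.3% over 27305 promoters of all genes. By run the median GC content was 33% at 12q13, 35.7% at 14q11, 37.2% at 1q44, 37.7% at 9q33, 39% at 6p22, 43.0% at 1q23 and 45.7% at 17p13. The homeodomain sequence TAATTA, which reads the same on both strands, was found in 23 of the 103 (22.3%), against 4.98% of all promoters. The octamer ATGCAAAT, searched on both strands, was found in 1 of the 103, against 1.80% of all promoters. These shares were not matched for GC content, which was 37.3% against 58.3%. Whether either motif is more or less frequent than base composition alone would give was not tested. Neither motif contains the other, and a match is a description of the sequence only. The first 2 promoters below are those with TAATTA whose GC content is nearest to the median of the 1q44 run and of the 17p13 run, the most negative and the most positive cluster below, and the third is the promoter that holds the octamer. Capitals mark the motif, and coordinates are on GRCh38.p14, not on the scale of the array. A gene start need not be a start of transcription: the last 50 bases shown for OR1A2 begin with ATG, the letters of a start codon. GC content and motif counts may then describe sequence around the coding start. How many of the 103 are of this kind was not counted.
OR2C3 at 1q44 (chr1:247536391-247536690, minus strand): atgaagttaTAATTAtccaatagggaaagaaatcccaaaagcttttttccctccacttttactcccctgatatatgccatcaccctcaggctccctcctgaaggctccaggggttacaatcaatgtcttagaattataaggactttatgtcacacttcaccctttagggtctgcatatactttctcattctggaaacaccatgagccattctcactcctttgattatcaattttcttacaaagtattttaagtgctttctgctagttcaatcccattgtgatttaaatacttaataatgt
OR1A2 at 17p13 (chr17:3197269-3197568, plus strand): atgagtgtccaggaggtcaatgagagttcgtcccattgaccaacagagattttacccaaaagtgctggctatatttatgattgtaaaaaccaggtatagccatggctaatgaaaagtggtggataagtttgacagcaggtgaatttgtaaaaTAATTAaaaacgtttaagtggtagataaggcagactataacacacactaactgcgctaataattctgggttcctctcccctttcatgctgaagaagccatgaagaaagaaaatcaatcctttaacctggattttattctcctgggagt
OR2AK2 at 1q44 (chr1:247964983-247965282, plus strand): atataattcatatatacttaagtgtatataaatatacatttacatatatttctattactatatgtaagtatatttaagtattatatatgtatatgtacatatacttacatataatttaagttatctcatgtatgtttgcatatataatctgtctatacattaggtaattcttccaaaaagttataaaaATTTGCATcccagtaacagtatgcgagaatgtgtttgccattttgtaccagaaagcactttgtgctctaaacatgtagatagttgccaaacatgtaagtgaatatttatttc

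Tiling arrays of this kind use longer probes where the sequence is A/T-rich, and 68.6% of the probes in member regions were longer than 50 bases, against 32.2% over all regions. The share was 81.9% at 12q13 and at 14q11, 70.1% at 1q23, 66.1% at 6p22, 65.9% at 1q44, 61.7% at 9q33 and 53.7% at 17p13. The genome sequence under the measured regions was not used here, so the measured regions themselves are not shown.

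Of the 123 regions, 29 were lower and 18 higher in the induced precipitate (limma across all 18008 regions, adjusted p threshold 0.05). These are 23.6% and 14.6% of the members, against 13.5% lower and 13.7% higher over all regions. The lower calls were concentrated in 1 cluster: 26 of the 29 lay in 1q44 and 3 in the other 6 clusters, while all 18 higher calls lay outside 1q44. In those 6 clusters, 22.2% of the 81 regions were higher and 3.7% lower. The counts rest on the arrays used: without arrays 1, 2 and 4 in turn, 29, 6 and 8 regions were higher, and without array 3, 47 were lower, 30 of them in 1q44. Over all regions the higher share was then 13.1%, 6.33% and 6.2%, and the lower share without array 3 was 14.4%.

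**Figure D1:**
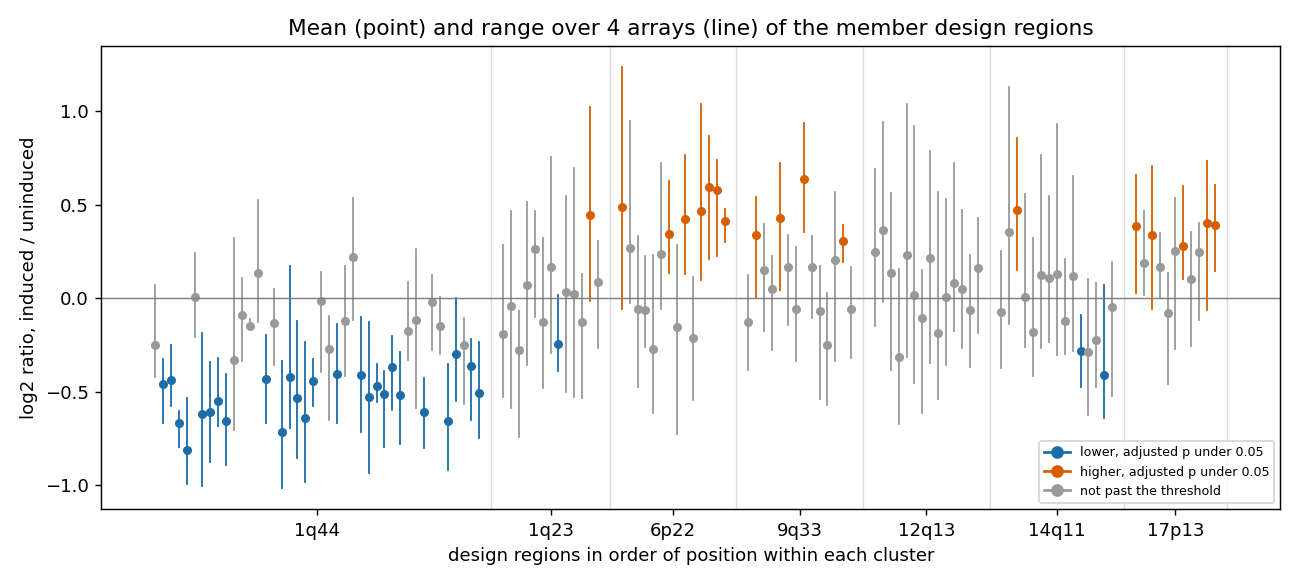
Log2 ratio of induced over uninduced signal for the 123 member regions, ordered by position within each cluster (x axis). Points are means and lines run from the lowest to the highest of the 4 arrays; blue and orange regions passed the limma threshold. Blue points fill most of 1q44, where 26 of 42 regions were lower, and the orange points all lie in other clusters.

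The 1q44 cluster was the lowest. Its 42 regions averaged -0.59, -0.38, -0.16 and -0.33 in arrays 1 to 4, a mean of -0.37 ± 0.18 (SD, n = 4), or 1.29-fold lower in induced cells. All 4 arrays were below 0. The mean over arrays was negative in 39 of 42 regions, and 27 regions (64.3%) were below 0 in every array, against 24.2% of all regions. None of the 42 was above 0 in every array, against 20.6% of all regions. When the array was cut into windows of 500 kb with at least 5 regions, and the 7 clusters took the place of their own windows, 1q44 had the lowest mean of 1358 (adjusted p = 0.0037, limma). The exact sign-flip p of the cluster mean was 0.13, the smallest that 4 arrays allow. In the window fit 10.3% of windows were lower and 15.5% higher. The call was lost without array 2 (adjusted p = 0.052) and in each array series alone (0.065 and 0.075, limma). That the end of chromosome 1 was low was known when the windows were drawn.

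Within 1q44 the lowest region ran from 245816084 to 245818784 and had 10 probes, each with a single match. Its arrays gave -1.0, -0.96, -0.54 and -0.76, a mean of -0.81 ± 0.21, or 1.76-fold lower (adjusted p = 0.00036, limma, n = 4). All 4 arrays lay well below 0, with array 3 nearest to it. The region from 246176582 to 246179282 followed at -1.02, -0.72, -0.34 and -0.80 (mean -0.72 ± 0.28, adjusted p = 0.0013, limma). The region from 245776871 to 245779571 had the tightest arrays of the 5 lowest, at -0.80, -0.60, -0.65 and -0.63 (mean -0.67 ± 0.09, adjusted p = 0.00034, limma). The other 2 of the 5 lowest called regions began at 245988029 (mean -0.66 ± 0.20) and 246823192 (mean -0.66 ± 0.25). Of these 5, 4 lay among the first 18 regions by position and 1 among the other 24.

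Not every 1q44 region was low. The highest, from 246525003 to 246527703, gave -0.12, 0.41, 0.06 and 0.54 (mean 0.22 ± 0.30, adjusted p = 0.13, limma), but it held only 7 probes, 2 of them single-match. Its arrays lay on both sides of 0. The first 18 regions by position averaged -0.40 ± 0.18 and the other 24 -0.34 ± 0.18, with 11 and 15 called lower. Regions next to each other differed by a median of 0.21, and any pair of regions in the cluster by a median of 0.24. Low regions and regions near 0 lay side by side. The 32 regions in which at least 60% of probes were longer than 50 bases averaged -0.43 ± 0.19, 23 of them called lower, and the 10 others -0.17 ± 0.13, 3 of them called lower.

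Part of the 1q44 cluster is sequence found more than once. The files give each probe a count, read here as the number of places it matches, and 226 of the 877 probes in 1q44 (25.8%) had a count of 2 or more. The 651 single-match probes averaged -0.67, -0.53, -0.25 and -0.47 (mean -0.48 ± 0.17), and the 226 others averaged -0.40, 0.01, 0.09 and 0.01 (mean -0.07 ± 0.22). The multi-match probes were higher in 4 of 4 arrays, by 0.41 ± 0.12 (exact sign-flip p = 0.13). In the other 6 clusters the difference was 0.35 ± 0.07 and over all probes 0.30 ± 0.08, each upward in 4 of 4 arrays. The 20 regions of 1q44 made only of single-match probes averaged -0.44 ± 0.18, 15 of them called lower, and the 5 with no single-match probe averaged -0.25 ± 0.22, 2 of them called lower. A multi-match probe also reads other places in the genome, so its value is not that of the cluster alone. With single-match probes alone the cluster stood at -0.48.

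The low values were not limited to the olfactory receptor window. The 14 regions within 2 Mb before it averaged -0.36, -0.28, -0.19 and -0.25, a mean of -0.27 ± 0.07, and 8 of them were called lower. The 4 regions after it averaged -0.32 ± 0.08, 3 of them called lower. The cluster minus these 18 flanking regions was -0.22, -0.08, 0.04 and -0.08 (mean -0.08 ± 0.10, exact sign-flip p = 0.25, Benjamini-Hochberg over 7 clusters 0.583). The difference was less than the spread between arrays, and array 3 went the other way. With single-match probes alone the difference was -0.17 ± 0.11, and with flanks of 5 Mb it was -0.24 ± 0.11. Both exceeded their spread and were below 0 in 4 of 4 arrays (exact sign-flip p = 0.13). Subtracting the mean of each probe length gave -0.07 ± 0.07, also below 0 in 4 of 4 arrays. Other settings gave a smaller difference. It was -0.06 ± 0.12 with flanks of 1 Mb and -0.06 ± 0.14 with medians over probes, both less than their spread. Arrays 1 and 2 alone gave -0.15 ± 0.10, and arrays 3 and 4 alone -0.02 ± 0.08. With an array left out the difference ranged from -0.12 to -0.04. By megabase, the regions starting between 244 and 245 Mb averaged -0.26 ± 0.13 (3 regions) and those between 242 and 243 Mb 0.25 ± 0.15 (7 regions). The last region before the window, from 245645773, was at -0.04 ± 0.16 and the first inside it, from 245681407, at -0.25 ± 0.22. The last inside, from 246911728, was at -0.51 ± 0.22, and the first after it, from 247086277, at -0.30 ± 0.14. The flanks had fewer long probes (36.4%) than the cluster (65.9%).

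**Figure D2:**
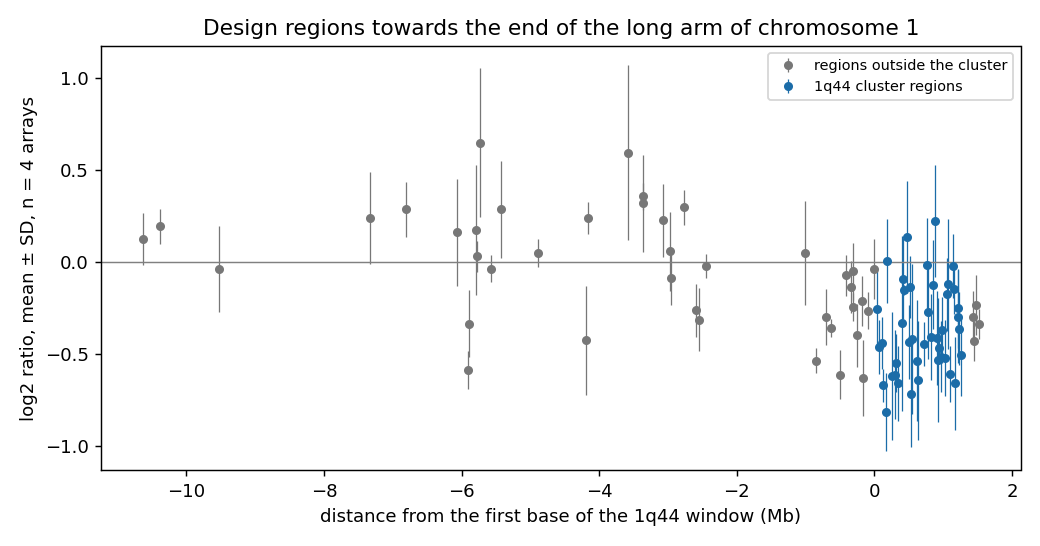
Mean log2 ratio ± SD over 4 arrays of each design region near the end of chromosome 1, against its distance in Mb from the first base of the 1q44 window (x axis). Blue points are the 42 cluster regions and grey points the regions outside; the grey points nearest the cluster on both sides also lie mostly below 0, at means of -0.27 and -0.32.

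The other 6 clusters did not share the level of 1q44. The 17p13 cluster was the highest, with -0.09, 0.38, 0.41 and 0.26 in arrays 1 to 4 and a mean of 0.24 ± 0.23 (n = 4, adjusted p = 0.034 among the 1358 windows, limma). It was above 0 in 3 of 4 arrays, and the exact sign-flip p of its mean was 0.25. The limma fit draws the spread of each window towards that of all windows. The gap between the highest and the lowest array had a median of 0.16 over all windows. It was 0.50 at 17p13 and 0.43 at 1q44, so the limma p rests partly on a smaller spread than these clusters had. The limma call of 17p13 was lost without array 2 (adjusted p = 0.19), without array 4 (0.078), in each array series alone (0.43 and 0.051), and with single-match probes (0.14, limma). The 6p22 cluster, at the edge of the major histocompatibility complex, gave -0.09, 0.15, 0.61 and 0.19 (mean 0.22 ± 0.29, adjusted p = 0.093, limma). The 9q33 cluster gave -0.18, 0.25, 0.29 and 0.18 (mean 0.13 ± 0.22, adjusted p = 0.17, limma). Both had 1 array below 0 and 3 above.

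The remaining 3 clusters centred near 0 with a wide spread. The 12q13 cluster gave -0.34, 0.00, 0.53 and 0.05 (mean 0.06 ± 0.36). The 1q23 cluster gave -0.41, -0.01, 0.41 and 0.03 (mean 0.01 ± 0.33). The 14q11 cluster gave -0.34, -0.11, 0.43 and -0.07 (mean -0.02 ± 0.32). Their adjusted p ranged from 0.69 to 0.98 (limma), and their direction changed with the array left out, from -0.13 to 0.14 for 1q23, -0.10 to 0.19 for 12q13 and -0.17 to 0.08 for 14q11. Without array 3 the 14q11 cluster, at -0.17, passed the threshold (adjusted p = 0.012, limma), and without array 1 the 9q33 cluster (0.24, adjusted p = 0.0022) and the 6p22 cluster (0.32, adjusted p = 0.0064) did. Without array 3 those clusters stood at 0.08 (9q33, adjusted p = 0.3) and 0.09 (6p22, adjusted p = 0.19, limma).

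**Figure D3:**
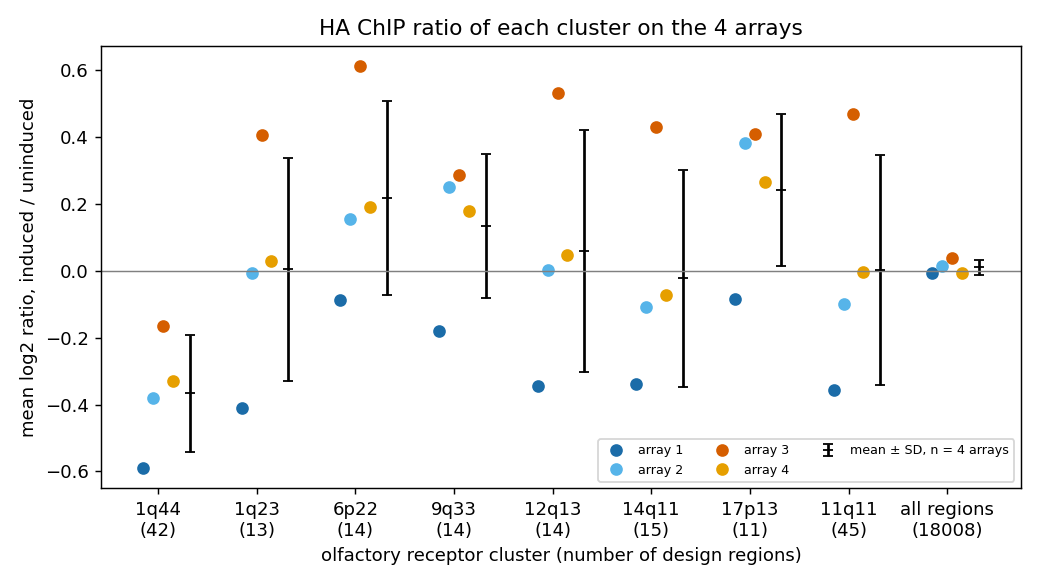
Mean log2 ratio (y axis) of each cluster on each of the 4 arrays (coloured points), with the mean ± SD in black, for the 7 clusters, for a chromosome 11 cluster (11q11) and for all 18008 regions. Array 1 is the lowest and array 3 the highest point in each of the 8 clusters, and 1q44 is the cluster with all 4 points below 0.

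Clusters were compared with each other on the same array, which removes what an array adds to all of them. The 1q44 cluster minus the mean of the other 6 was -0.35, -0.49, -0.61 and -0.44 (mean -0.47 ± 0.11), below 0 in 4 of 4 arrays. The 17p13 cluster (0.24 ± 0.14) and the 6p22 cluster (0.21 ± 0.07) stood above the others in 4 of 4 arrays. For these 3 the exact sign-flip p was 0.13, the smallest possible, and 0.292 after Benjamini-Hochberg adjustment over 7 clusters. For 9q33 the difference was 0.11 ± 0.14, for 12q13 0.02 ± 0.12, for 1q23 -0.04 ± 0.08 and for 14q11 -0.07 ± 0.11, with arrays on both sides of 0 in each. Of the 21 pairs of clusters, 12 differed in one direction on all 4 arrays: the 6 pairs with 1q44 and 6 of the 15 others. The pairs of 1q44 ranged from -0.34 ± 0.17 against 14q11 to -0.61 ± 0.11 against 17p13. In the order of the means, 14q11 and 1q23 (a difference of 0.03 ± 0.09 between 1q23 and 14q11) and 6p22 and 17p13 (-0.03 ± 0.18) did not differ beyond the spread of the arrays, and 12q13 and 9q33 (0.07 ± 0.22 between 9q33 and 12q13) and 9q33 and 6p22 (0.08 ± 0.18 between 6p22 and 9q33) did not either. The neighbours 1q23 and 12q13 differed by -0.05 ± 0.05, with the same sign in 4 of 4 arrays.

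A large olfactory receptor cluster on chromosome 11, chr11:54850000-56300000 (11q11), served as the nearest comparison. Its 45 regions gave -0.36, -0.10, 0.47 and 0.00 (mean 0.00 ± 0.34), with 2 regions higher and 3 lower. Against it, 1q44 was lower in 4 of 4 arrays, by -0.23, -0.28, -0.63 and -0.33 (mean -0.37 ± 0.18). The 6p22 cluster was higher in 4 of 4 arrays (0.22 ± 0.06), as was 12q13 by a small amount (0.06 ± 0.04). Each of these has an exact sign-flip p of 0.13 (0.292 adjusted over 7). The 17p13 cluster had the largest positive difference, 0.24 ± 0.22, but lay at -0.06 on array 3, and 9q33 (0.13 ± 0.22) lay at -0.18 on that array. The 1q23 cluster (0.00 ± 0.07) and the 14q11 cluster (-0.02 ± 0.04) also had arrays on both sides of it.

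Against their own flanks of 2 Mb, the 6 clusters outside 1q44 again had arrays on both sides of 0. The 17p13 cluster was higher than its 73 flanking regions by 0.27 ± 0.26 and 9q33 higher than its 36 by 0.15 ± 0.22. The difference was 0.09 ± 0.28 at 6p22, -0.07 ± 0.26 at 1q23, -0.10 ± 0.26 at 14q11 and -0.10 ± 0.42 at 12q13. Exact sign-flip p ranged from 0.25 to 0.625. In each of the 7 clusters array 1 gave the lowest difference from the flanks.

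The 7 higher regions of 6p22 lay mostly in its second part. From 29502988 onwards 5 of 6 regions were higher, and before it 2 of 8. The highest ran from 29563158 to 29565858 and gave 0.21, 0.54, 0.87 and 0.77 (mean 0.60 ± 0.29, 1.51-fold, adjusted p = 0.0029, limma, n = 4). The region from 29635181 to 29637881 gave 0.22, 0.67, 0.74 and 0.70 (mean 0.58 ± 0.24, adjusted p = 0.0022, limma), with array 1 apart from the other 3. The last member, from 29661500 to 29664200, had the smallest spread, at 0.30, 0.48, 0.45 and 0.43 (mean 0.41 ± 0.08, adjusted p = 0.0028, limma). The region from 29532008 to 29534708 gave 0.10, 0.52, 1.04 and 0.21 (mean 0.47 ± 0.42, adjusted p = 0.023, limma) and was not called without array 2. All 4 of these regions were above 0 on every array. The lowest of the cluster, from 29380245 to 29382945, gave -0.62, -0.29, 0.23 and -0.41 (mean -0.27 ± 0.36, adjusted p = 0.1, limma) and was called lower without array 3 (-0.44, adjusted p = 0.00076). The first region after the window, from 29703226, was also higher (0.29 ± 0.20, adjusted p = 0.028, limma).

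The highest of all member regions lay in 9q33, from 124431135 to 124433835. Its 19 single-match probes gave 0.35, 0.78, 0.94 and 0.48 (mean 0.64 ± 0.27, 1.56-fold, adjusted p = 0.002, limma, n = 4). Every array was above 0. The other 3 higher regions of 9q33 began at 124310701 (0.34 ± 0.25), 124353069 (0.43 ± 0.29) and 124588832 (0.30 ± 0.09). No 9q33 region was called lower, and its lowest, from 124523889 to 124526589, gave -0.57, -0.31, 0.03 and -0.14 (mean -0.25 ± 0.26, adjusted p = 0.072, limma). That region was called lower without array 3 (-0.34, adjusted p = 0.0076) and with single-match probes (-0.34, adjusted p = 0.026, limma).

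At 17p13, 5 of 11 regions were higher and the region means were the most alike of any cluster, with a standard deviation of 0.14 between regions. The highest, from 3268411 to 3271111, gave -0.06, 0.46, 0.74 and 0.47 (mean 0.40 ± 0.33, adjusted p = 0.021, limma, n = 4). With its 11 single-match probes of 19 it stood at 0.25 and was not called (adjusted p = 0.055), nor was it without array 2 or array 4. The neighbouring region from 3283385 to 3286085 gave 0.14, 0.61, 0.38 and 0.43 (mean 0.39 ± 0.19, adjusted p = 0.0078, limma), above 0 on every array. At the other end, the region from 2913151 had no single-match probe and was also higher (0.38 ± 0.26, adjusted p = 0.014, limma). Only the region from 3063464 to 3066164 had a negative mean (-0.08 ± 0.26, adjusted p = 0.58, limma). The multi-match probes of the cluster, 22.5% of its probes, exceeded its single-match probes by 0.47 ± 0.10.

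The 12q13 cluster had no called region in either direction. Its highest, from 53898875 to 53901575, gave -0.02, 0.18, 0.95 and 0.35 (mean 0.36 ± 0.42, adjusted p = 0.055, limma, n = 4), and its lowest, from 53974783 to 53977483, gave -0.67, -0.50, 0.15 and -0.24 (mean -0.32 ± 0.36, adjusted p = 0.064). In both, array 3 was the highest array. Both passed the threshold after subtraction of the mean of each probe length (0.40, adjusted p = 0.01, and -0.26, adjusted p = 0.041), with quantile normalization (0.36, adjusted p = 0.032, and -0.31, adjusted p = 0.04) and with array weights (0.36, adjusted p = 0.01, and -0.29, adjusted p = 0.021, limma). Without array 3 the lowest was called (-0.47, adjusted p = 0.00056) and without array 1 the highest (0.49, adjusted p = 0.026, limma).

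At 14q11 the highest region, from 19363247 to 19365947, held no single-match probe and gave 0.15, 0.70, 0.86 and 0.17 (mean 0.47 ± 0.36, adjusted p = 0.014, limma, n = 4). The call was lost without array 2 (0.39, adjusted p = 0.089, limma). The 80 multi-match probes of this cluster averaged 0.29 ± 0.38 and its 213 single-match probes -0.14 ± 0.31, a difference of 0.43 ± 0.13 that was upward in 4 of 4 arrays. The 2 lower regions lay towards the other end, from 19653205 (-0.28 ± 0.17, adjusted p = 0.025) and from 19759508 to 19762208 (-0.64, -0.61, 0.07 and -0.47, mean -0.41 ± 0.33, adjusted p = 0.019, limma). The latter call was lost without array 1, 2 or 4. At 1q23 the highest region, from 157002596 to 157005296, gave -0.02, 0.46, 1.02 and 0.32 (mean 0.45 ± 0.43, adjusted p = 0.029, limma), and the call was lost without array 2 or array 4. One region of 1q23, from 156922612, was lower (-0.25 ± 0.18, adjusted p = 0.046, limma). The lowest, from 156699775 to 156702475, gave -0.74, -0.23, -0.07 and -0.07 (mean -0.28 ± 0.32, adjusted p = 0.075, limma) and was called lower with single-match probes (-0.38) or without array 3 (-0.35).

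The gap between the highest and the lowest array was wider in these clusters than in the median window of 500 kb. In each of the 7 clusters, and at 11q11, array 1 was the lowest and array 3 the highest. The gap between them was 0.88 at 12q13, 0.82 at 1q23, 0.77 at 14q11, 0.70 at 6p22, 0.50 at 17p13, 0.47 at 9q33 and 0.43 at 1q44. It was 0.83 at 11q11, wider than in 6 of the 7 clusters. The median gap over all windows was 0.16. Among the 1358, the widest gap being number 1, the clusters ranked 3, 5, 9, 15, 36, 46 and 66 in the order just given, so other windows had gaps as wide. Of the 123 regions, 107 had their lowest value on array 1 and 91 their highest on array 3. The ratio on arrays 1 and 3 also moved with probe length over the whole array. Across all 18008 regions, the Pearson correlation of the region's ratio with its mean probe length was -0.24, -0.10, 0.43 and 0.06 in arrays 1 to 4. Across the 123 member regions the pattern was another one, at -0.37, -0.42, 0.09 and -0.29, strongest on array 2 and nearest to 0 on array 3. These correlations are given as a description because regions share an array. Subtracting the mean of each probe length on each array left gaps of 0.70, 0.68, 0.60, 0.58, 0.48, 0.45 and 0.31 in the same order of clusters. Most of each gap remained after the subtraction, which used means over the whole array. On array 3 the step of single-match probes from the shortest length to the next length class was 0.09 outside the clusters. It was -0.43 in 1q44 and -0.43 in the other 6 clusters. Such means therefore cannot give the share of the gap that goes with probe length in these clusters. That share was not tested, and neither was what differs between the arrays.

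Probe length also split the values within the clusters. Among single-match probes of 1q44, the 207 of 50 bases averaged -0.13 ± 0.14 and the 147 of 51 to 55 bases -0.62 ± 0.16, a step of -0.48 ± 0.06. In the other 6 clusters the 411 probes of 50 bases averaged 0.37 ± 0.28 and the 347 of 51 to 55 bases -0.08 ± 0.27, a step of -0.44 ± 0.09. Both steps were downward in 4 of 4 arrays (exact sign-flip p = 0.13). Outside the clusters the same step was -0.10 ± 0.17 and downward in 3 of 4 arrays, and at 11q11 it was -0.76 ± 0.14. The difference between 1q44 and the other 6 was present at each probe length: -0.50 ± 0.14 for 50 bases, -0.54 ± 0.11 for 51 to 55, -0.56 ± 0.09 for 56 to 60 and -0.67 ± 0.15 for 61 to 74, below 0 in 4 of 4 arrays each time. After subtraction of the mean of each probe length, 1q44 stood at -0.35.

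**Figure D4:**
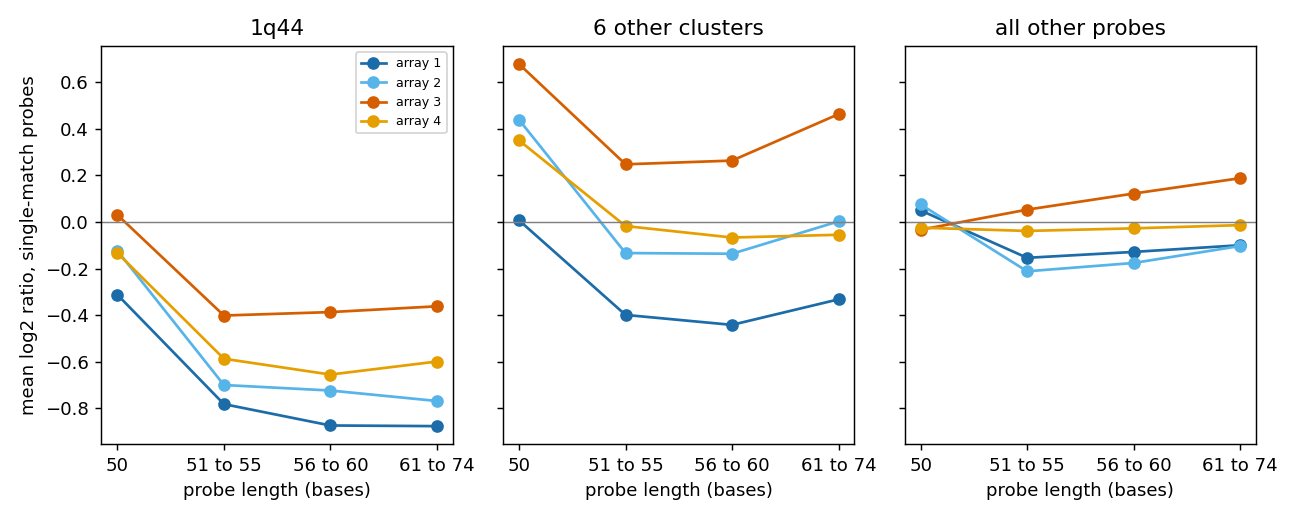
Mean log2 ratio (y axis) of single-match probes by probe length in bases (x axis), one line per array, for the 1q44 cluster, the other 6 clusters and the probes outside the clusters. In both cluster panels each array steps down from 50 to 51 to 55 bases, and on each array the 1q44 line lies below that of the other 6 clusters at every length.

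Inside the regions, bins of 500 bp with at least 3 probes showed that ratios changed over short distances. Of 501 member bins, 155 were lower (30.9%) and 92 higher (18.4%), against 16.3% lower and 17% higher of all 76092 bins (limma, adjusted p threshold 0.05). In 1q44, 100 of 174 bins were lower and 12 higher. In the other 6 clusters, 55 of 327 were lower (16.8%) and 80 higher (24.5%). A higher and a lower bin lay in the same region in 38 of the 123 regions, 11 of them in 1q44, and 121 called bins lay in regions that were not themselves called. The same counts were not made over all regions of the array, so they are not read as particular to these clusters.

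The lowest bin was in the last 1q44 region, from 246913229 to 246913686, with -1.39, -1.68, -1.33 and -1.44 over 5 single-match probes (mean -1.46 ± 0.15, 2.75-fold lower, adjusted p = 0.00012, limma, n = 4). Its 4 arrays were close together. The other measured bins of that region were at 0.24, -0.95 and -0.17 in order of position, so the low stretch was in 2 separate parts. The bins from 246178182 (-1.38 ± 0.26) and from 246290106 (-1.37 ± 0.25) lay in regions whose first 3 bins were also lower, at -1.19, -0.95 and -0.55 and at -1.12, -1.12 and -0.63. In both regions the last bin was at 0.34 and 0.42 and was not called. The highest bin was in 6p22, from 29451547 to 29451996, with 1.17, 1.06, 1.55 and 0.71 over 4 single-match probes (mean 1.12 ± 0.34, 2.17-fold higher, adjusted p = 0.00023, limma). Its region also held a lower bin about 1 kb further on, at -0.82 ± 0.12. The bin from 19364747 at 14q11 (1.02 ± 0.26) held probes that match 2 places on average, and its region had a lower bin at -0.70. In the 6p22 region from 29563158, the first 3 bins were at 1.00, 0.83 and 0.90 and the last at 0.06. The 3 high bins ran from 29563258 to 29564607, and the stretch between them and the last bin was not tested.

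The 12q13 region from 54042961 to 54045661 was chosen after its values were seen, as the one with the lowest mean over 3 consecutive probes in this cluster. Its mean over all 15 probes was -0.11. The 3 probes starting at 54043561, 54043761 and 54043961 averaged -1.93 ± 0.61, -1.11 ± 0.46 and -1.38 ± 0.40, and each was below 0 in 4 of 4 arrays. The probe starting at 54044976 averaged 1.18 ± 0.31, and the 4 probes before the low stretch had means between -0.75 and 0.22 with arrays on both sides of 0. The next probe, starting at 54045076, averaged -0.575 ± 0.32 and was below 0 in 4 of 4 arrays. On the grid of 500 bp bins used here the low probes of the 3-probe stretch fell into bins with fewer than 3 probes and were not tested. The bin from 54044976 to 54045425 was tested and was higher (0.44 ± 0.33, adjusted p = 0.027, limma). The bin from 54042961 was not called (-0.13 ± 0.79, adjusted p = 0.68, limma).

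Across the 81 regions of the 6 clusters other than 1q44, the 6 pairs of arrays had a median Pearson correlation of 0.64 (0.32 to 0.79), and across the 42 regions of 1q44 it was 0.61 (0.51 to 0.82). These are across regions of the same arrays and carry no p. Over all 18008 regions the median was also 0.61 (0.38 to 0.73). The 81 regions were pooled without centring each cluster, so their value also holds differences in level between clusters. Within 1q44 the order of regions was partly shared between arrays, about as much as over all regions. The mean level of a cluster shifted from array to array.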

How the data were processed

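HA ChIP DNA of induced and uninduced HEK293/RPF-1 cells was compared on 4 two-colour promoter arrays. The authors deposited, per the file headers, a log2 ratio of the Cy5 to the Cy3 scan for each probe, written by NimbleScan with a biweight mean per array; the log base is not written and was taken as 2. The software version, the genome build and whether background was corrected: not given in the sources used here. Array medians were subtracted. Probes were averaged per design region (at least 5 probes) and per 500 bp bin (at least 3 probes), and limma 3.58.1 (R 4.3.3) tested each feature's mean against 0 (two-sided, empirical Bayes, Benjamini-Hochberg over all features, threshold 0.05). Cluster values are means over regions, tested by exact two-sided sign flips over the 4 arrays, which cannot give p below 0.13. Probe standard deviations per array were 0.698 to 0.752; the number of arrays limits the precision. No file repeats another: in pairs of arrays, 0.46 to 0.66% of probes shared a value. Array series N39 (arrays 1 and 2) and N44 (arrays 3 and 4) are read from file names. The test was tested on simulated data. For regions it recovered 74 of 100 changes of 0.5 log2 and 100 of 100 of 1 log2, with 2 false calls. For bins it recovered 0 and 43 of 100, with 0 false calls. The simulation did not keep shifts that regions share on an array, and it did not cover the fit of the 500 kb windows. It also changed far fewer regions and bins than were called in the data, which makes the adjusted threshold stricter. The recovered shares therefore need not hold for the data. Named regions are the highest and lowest of each cluster and the 5 highest and 5 lowest called members with one sign in all arrays; named bins are the 3 highest and 3 lowest such bins, at most 1 per region. Other regions were named after their values were seen. The members, lists and tests were chosen with earlier results of these data known. Alternatives were other scalings, probe sets, probe minimums, bin sizes, flanks, moderations and arrays left out.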

Additional observations from a re-analysis of the deposited data

Results flagged for a closer look

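Dixon's test over the 4 arrays was applied to 47 cluster, region and bin values, of which chance would mark about 2.35, and 1 exceeded its 95% critical value. In the 6p22 region on chromosome 6 from 29635181, array 1 gave 0.223, far below the other arrays, which lay between 0.667 and 0.738. Array 1 was also the lowest array of the whole cluster, at -0.09. Without array 1 the region stood at 0.70. The part of array 1 in this value was not tested.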

How the results depend on the processing

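The direction of 1q44 was negative, and its difference from the other 6 clusters negative, under every alternative run. With an array left out, 1q44 ranged from -0.43 to -0.29, and array series N39 and N44 alone gave -0.49 and -0.25, not called. The 17p13 cluster stayed above 0 but was not called with single-match probes (0.14) or in N39 (0.15) or N44 (0.34), and ranged from 0.19 to 0.35 with an array left out. The 6p22 cluster was called with quantile normalization (0.21), probe length subtraction (0.24) and medians over probes (0.28), and ranged from 0.086 to 0.32 with an array left out. The 9q33 cluster ranged from 0.083 to 0.24. Near 0, signs changed: 1q23 with single-match probes (-0.008) and N39 (-0.21), range -0.13 to 0.14; 12q13 in N39 (-0.17), range -0.10 to 0.19; 14q11 with probe length subtraction (0.018) and N44 (0.18), range -0.17 to 0.084. Against the other clusters, 1q23 turned to 0.010 with single-match probes and 0.020 in N44, and 12q13 to -0.054 in N39, range -0.035 to 0.053. Against flanks, N44 gave 0.10 for 1q23, 0.18 for 12q13 and 0.0705 for 14q11, and N39 gave -0.0905 for 6p22, with leave-one-out ranges of -0.19 to 0.018 for 1q23, -0.29 to 0.041 for 12q13 and -0.032 to 0.19 for 6p22. Regions higher and lower numbered 10 and 48 in N39, against 9.82% and 8.86% of all regions. They numbered 30 and 17 in N44 (10.7% and 7.1% of all regions) and 3 and 15 with a minimum change of 0.5 (2.54% and 0.894%). Array weights gave 30 higher, against 19.2% of all regions. With an array left out, higher regions ranged from 6 to 29, where 6.33% and 13.1% of all regions were higher. Lower regions then ranged from 22 to 47, where 5.15% and 14.4% of all regions were lower. Bins higher and lower numbered 52 and 72 with at least 5 probes, where fewer bins were tested, against 15.8% and 18.2% of all bins. N39 gave 54 higher (14.6% of all bins), N44 62 lower (6.53%) and 1000 bp bins 95 lower (15%). With an array left out, higher bins ranged from 57 to 102, where 11.8% and 12.8% of all bins were higher. Lower bins then ranged from 99 to 180, where 10.7% and 15.2% of all bins were lower. The 17p13 region from 3063464 turned to 0.050 without array 1 (range -0.15 to 0.050) and to 0.0078 in N44. Except where fewer bins or arrays were used, the cause was not tested. No paired analysis was possible because there is a single group, and the induced and uninduced precipitates are compared within each array. No intensities were used here, so signal over background is unknown.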
